A study of Sus scrofa with 13 samples.

Results

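The genes described here are 34 cell cycle and DNA replication genes, taken by symbol from the 27339 genes counted in each library. All 34 were listed in the deposited counts, and 5hmC (5-hydroxymethylcytosine) reads were found at 32 of them. By role, 5 genes are D-type cyclins and their kinases, 7 control the passage from G1 to S phase, 9 act in replication and S phase, and 13 act in G2 and mitosis. In 12 libraries the 34 genes together held 8969 reads.

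The cells were mesenchymal stem cells isolated from abdominal fat of female domestic pigs. All donors of these libraries had been fed a diet with 2% cholesterol and had a coil-induced narrowing of 1 renal artery, and the fat was taken 3 weeks after the narrowing was induced. One group of 6 libraries came from cells kept for 48 hours at 1% oxygen (hypoxia), and the other group of 6 from cells kept at 20% oxygen (normoxia). Each title starts with 1 of 6 numbers (110, 16, 21, 33, 49 and 4), so that a hypoxia and a normoxia library share each number. The labels do not say whether a number marks a pig, a culture or a preparation, and p-values here therefore cover the spread among libraries, which can be technical. Both groups carry the diet and the stenosis, and cells of healthy pigs are not part of this comparison.

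5hmC is made when TET enzymes oxidise methylated cytosine in DNA, a reaction that needs oxygen, and it is known to accumulate in the bodies of many transcribed genes. In the cell cycle, D-type cyclins with CDK4 or CDK6, and then cyclin E with CDK2, relieve the block that pocket proteins place on the E2F factors. The E2F factors drive genes of replication, the MCM helicase unwinds DNA in S phase, and CDK1 with the A- and B-type cyclins brings the cell into mitosis. The measured values are reads on antibody-captured DNA fragments: they give neither RNA nor protein, nor the share of cells in a phase.

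The libraries held 15569948 to 27428482 reads in the deposited tables, of which 263578 to 714002 (1.69 to 2.89%) were counted to a gene symbol. Which part of each gene was counted is not given in the sources used here. These shares therefore need not be those of reads in whole gene bodies. The normoxia library of number 21 was the shallowest. It also stood apart across all genes: its median correlation with the other libraries was 0.657, and the medians of the other 11 ran from 0.756 to 0.825. The main comparison, and genes for which it matters, are therefore also given without number 21. Levels are given as CPM, counts per 1000000 reads in the genes that passed the count filter of the main comparison, with these library sizes scaled by edgeR. Numbers 110, 16, 21 and 33 carry the mark L7 in the names of their deposited tables and numbers 49 and 4 the mark L8, read here as sequencing lanes. Both groups are present in each lane. No number lies in both lanes, so values within a lane cannot be told apart from those of its few numbers.

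The cell type label could be checked only through 5hmC on DNA. All 8 stromal marker genes had reads in all 12 libraries, but so did 5 of 5 endothelial and 5 of 6 leukocyte markers, so the reads do not tell these cell types apart. The summed level at the stromal markers ran from 711 to 958 CPM in hypoxia and from 715 to 1260 CPM in normoxia, and was lower in hypoxia in 6 of 6 numbers. The sum at the 5 smooth muscle and pericyte markers was lower in 6 of 6 numbers as well, at 95.7 to 217 against 105 to 341 CPM. Single markers were less regular: ACTA2 was lower in 6 numbers, CNN1 in 3, and the stromal markers ENG and LEPR in 2. The sum at the 4 adipocyte markers was lower in 1 number, at 211 to 425 against 117 to 266 CPM. ADIPOQ made up most of this sum, with means of 240 CPM in hypoxia and 160 CPM in normoxia. Singly, ADIPOQ and PLIN1 were lower in 1 number each, FABP4 in 2 and LEP in 3. The leukocyte sum was also lower in 1 number, the sum at 6 epithelial markers in 2, and the endothelial sum in 3. Whether the make-up of the cultures plays a part in the values below was not tested.

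Read support differed widely among the cell cycle genes. CDK6, a kinase partner of the D-type cyclins, had 1716 reads over the 12 libraries, CDK1 had 839, the transcription factor gene E2F3 745, CDC20 534 and AURKB 496. At the other end, CCNE1 (cyclin E1) had 13 reads, CHEK1 (the S phase checkpoint kinase) 36, CDC25C (a phosphatase that activates CDK1) 41 and PCNA (the sliding clamp of DNA polymerases) 53. These totals depend on how much sequence was counted for each gene, which is not given in the sources used here, so they show how well each gene was measured and do not rank the genes by 5hmC. Within the roles, most reads lay at CDK6, E2F3, RRM2 (a subunit of the enzyme that makes deoxynucleotides) and CDK1. The fewest lay at CDK4, CDC25A, MCM5 and CDC25C.

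No read was counted at CDC25A, the phosphatase that activates CDK2, or at MCM5, a helicase subunit, in any library. The libraries together held 5824590 gene reads. Where reads can be placed at a gene, a count of 0 in all libraries allows a level of up to 0.579 on the CPM scale used here. That limit covers counting error only, and it does not hold for genes at which no read could be placed. RefSeq's gene table for Sscrofa11.1 places neither gene on a chromosome. All 1356 counted genes without a chromosome there had 0 reads, against 437 of 25482 genes with one (1.71%). Whether reads could have been placed at these genes at all was not tested. Among the rest, 11 of the 34 genes overlap another RefSeq gene, such as CDK1 with LOC100152879 and PLK1 with ERN2, and reads from such a pair may be split or dropped in counting.

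**Figure D1:**
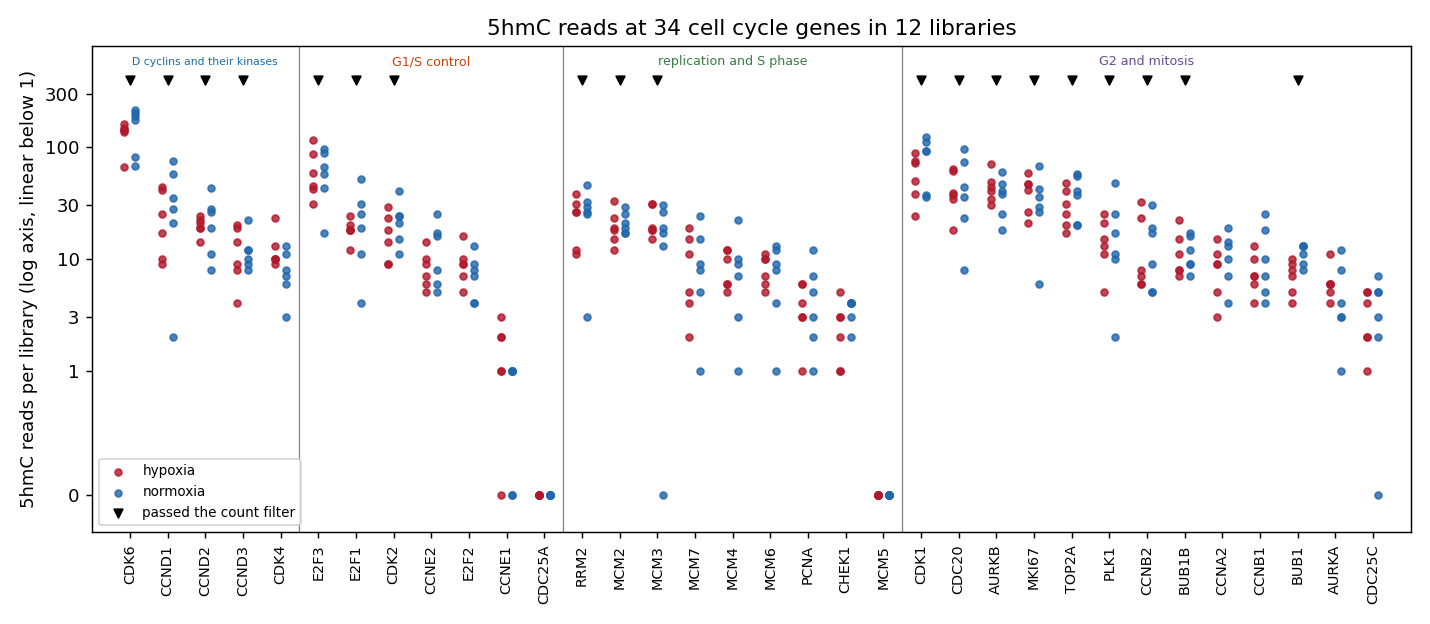
Deposited 5hmC reads (y axis, log scale above 1 read and linear below it) at each of the 34 genes (x axis, by role and then by mean level). Each dot is 1 library, red for hypoxia and blue for normoxia, and a triangle marks the 19 genes that passed the count filter. CDK6 and CDK1 stand highest in their roles, CDC25A and MCM5 lie at 0 in all 12 libraries, and the colours overlap at every gene that was tested.

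The main comparison asked whether 5hmC at these genes differed between 1% and 20% oxygen. Enough reads for a test were present at 19 of the 34 genes: 4 of 5 D cyclin and kinase genes, 3 of 7 G1/S genes, 3 of 9 replication genes and 9 of 13 G2 and mitosis genes. Of all counted genes, 43.4% passed the same filter. None of the 19 genes was called by edgeR's quasi-likelihood test at an adjusted p under 0.05, and the lowest adjusted p by edgeR was 1. Over all 11868 tested genes the share called was 0%. At an unadjusted p under 0.05 there were 2 genes, BUB1 and CDK1, both with lower values in hypoxia. They are 10.5% of the 19, where 2.73% of all tested genes had such a p and 1.81% had it in the lower direction. BUB1 passed the filter through its normoxia libraries, as described with its values, and without it the count is 1 of 18 (5.56%). DESeq2 also called 0 of these genes. The unadjusted result depended on the scaling and on single libraries. With library sizes unscaled, 0 of the 19 had an unadjusted p under 0.05 by edgeR (2.38% of all tested genes). With single libraries left out, edgeR's unadjusted p ran from 0.0091 to 0.167 at CDK1 and from 0.00845 to 0.0829 at BUB1.

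The direction of the fitted changes leaned towards lower 5hmC in hypoxia. The log2 fold change was below 0 at 15 of the 19 genes (56.6% of all tested genes) and above 0 at 4. The median was -0.198, against -0.0431 over all tested genes. Without BUB1, which passed the filter through its normoxia libraries, 14 of 18 genes were negative and the median was -0.186. Values of the 19 genes ranged from -0.72 at BUB1 to 0.37 at MCM3. All 4 tested D cyclin and kinase genes and all 3 tested G1/S genes had a negative value, with medians of -0.22 and -0.275. Of these, CCND3 at -0.07 ± 0.327 and E2F3 at -0.02 ± 0.261 (SE) lay near 0. Without number 21 CCND3 was at 0.15, and 3 of 4 D cyclin and kinase genes were negative. In the full set 6 of 9 G2 and mitosis genes were negative, BUB1 among them (median -0.198), and 2 of 3 replication genes (median -0.173). Genes that were tested had to carry reads, so these shares do not speak for all 34.

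With the title number as a block, 16 of the 19 values were negative (53.4% of all tested genes) and the median was -0.176. Again no cell cycle gene was called by edgeR, where 0.0337% of all tested genes were, and the lowest adjusted p among the 19 was 0.511. BUB1, which passed the filter through normoxia, and CDK1 were again the genes with an unadjusted p under 0.05. With the block 7.09% of all genes had such a p, and 4.49% had it in the lower direction. Without number 21 and without the block, 14 of 19 values were negative (51.6% of all genes), the median was -0.201, and no gene reached an unadjusted p under 0.05 in edgeR (3.42% of all genes). BUB1 did not pass the filter in that subset, and MCM7 did. With the genes tested held to those of the full set, the median without number 21 was -0.214, against -0.0165 over all genes. With the block and without number 21, 14 of 19 were negative (50.5% of all genes) and the median was -0.175. None of them was called by edgeR there (0.0986% of all genes), and CDK1 and CCND1, both lower in hypoxia, had an unadjusted p under 0.05 (10.1% of all genes, and 5.46% in the lower direction). Within lane 7 alone the median was -0.293 over 19 tested genes, and within lane 8 alone it was -0.0819 over 25, of which 14 were negative. In the full set no gene had groups whose ranges lay apart, where 0.101% of all tested genes did.

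**Figure D2:**
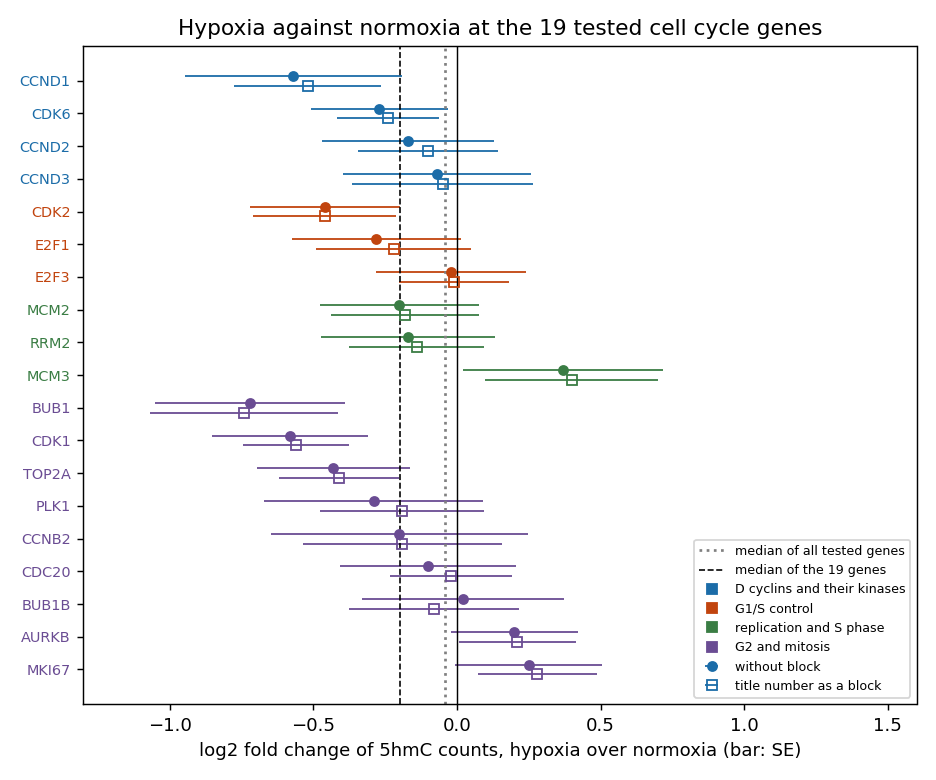
Log2 fold change of 5hmC counts, hypoxia over normoxia, with an SE derived from edgeR's test as bars (x axis) at the 19 tested genes (y axis), coloured by role. Filled circles are the fit without and open squares the fit with the title number as a block. Of the circles 15 lie left of 0, from BUB1 at -0.72, and MCM3 at 0.37 lies farthest right.

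Among the 4 tested genes of the D cyclin role, CCND1 had the largest fitted difference. CCND1 encodes cyclin D1, which links growth signals to the start of the cycle. Its level in hypoxia ran from 27.4 to 80 CPM with a median of 48.2, and in normoxia from 9.66 to 150 with a median of 80.1. The lowest value, in the normoxia library of number 21, rests on 2 reads, and the highest is the normoxia library of number 49. The hypoxia library was lower in numbers 110 (42.1 against 83.1 CPM), 16 (27.8 against 49.1), 49 (54.3 against 150) and 4 (79.8 against 87.8), and higher in numbers 21 and 33, so the groups overlap. Means were 51.9 ± 23.9 and 76.2 ± 46.6 CPM (SD, n = 6 each), and the log2 fold change was -0.57 ± 0.378 (SE; adjusted p = 1 by edgeR).

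The size of the difference at CCND1 depended on the libraries used. With the block and without number 21 its log2 fold change was -0.62 ± 0.231 (adjusted p = 0.332 by edgeR), so it was not called there either. Without the normoxia library of number 49 the unblocked value was -0.27. Within lane 7 it was -0.32 and within lane 8 -0.78.

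CDK6 had the most reads of all 34 genes. RefSeq lists its entry under this symbol as a long non-coding RNA, unlike the other 33, which are protein-coding, so its reads may not be those of the coding kinase gene alone. The level at CDK6 was 204 to 373 CPM (median 312) in hypoxia and 192 to 518 CPM (median 376) in normoxia. The hypoxia library was lower in numbers 110, 33 and 49 and higher in numbers 16, 21 and 4. The log2 fold change was -0.27 ± 0.239 with means of 303 ± 64.9 and 367 ± 127 CPM (SD, n = 6 each). The other D-type cyclins, CCND2 and CCND3, had log2 fold changes of -0.17 ± 0.3 and -0.07 ± 0.327. CDK4, the other kinase partner, did not pass the filter. Its mean was 28.9 ± 9.91 CPM in hypoxia and 18.1 ± 3.2 CPM in normoxia on 3 to 23 reads per library (SD, n = 6 each). In the fit without the filter CDK4 had a log2 fold change of 0.65 ± 0.339 (adjusted p = 1 by edgeR), opposite in sign to CCND1.

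CDK2 had the largest fitted difference of the 3 tested G1/S genes. It encodes the kinase that cyclin E and cyclin A activate to start and sustain replication. The hypoxia library was the lower of the pair in every number: 34.7 against 57 CPM in number 110, 27.8 against 35 in 16, 24.7 against 53.1 in 21, 44.9 against 57.8 in 33, 39.1 against 48.1 in 49, and 52.6 against 61.6 in 4. The ranges still overlap, since the normoxia libraries of numbers 16 and 49 lie below the highest hypoxia library. Means were 37.3 ± 10.5 and 52.1 ± 9.54 CPM (SD, n = 6 each), and the log2 fold change was -0.46 ± 0.262 (adjusted p = 1 by edgeR). With the block it was the same size (adjusted p = 0.717 by edgeR), and without number 21 it was -0.35. It was -0.57 within lane 7 and -0.21 within lane 8.

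E2F1, the founding activator of the E2F family, did not separate the groups. It was at 32.7 to 55.6 CPM (median 44) in hypoxia and 19.3 to 80.1 CPM (median 51.8) in normoxia. The normoxia library of number 21 gave the lowest value and that of number 4 the highest. The log2 fold change was -0.28 ± 0.295, but 0.18 within lane 7 and -0.87 within lane 8. Lane 8 holds only numbers 49 (43.5 against 62.2 CPM) and 4 (32.7 against 80.1 CPM), hypoxia first. E2F3, an activator of the same family with the most reads of this role, was at 138 ± 42.4 and 140 ± 55.7 CPM (SD, n = 6 each), and its log2 fold change was -0.02 ± 0.261. The cyclin E genes had too few reads for the test. CCNE2 was at 19.3 ± 5.21 and 29 ± 11.8 CPM (SD, n = 6 each), lower in hypoxia in 5 of 6 numbers, and CCNE1 had 0 to 3 reads per library. Without the filter CCNE2 had a log2 fold change of -0.58 ± 0.347 and CCNE1 one of 1.04 ± 0.79 (adjusted p = 1 by edgeR for both).

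**Figure D3:**
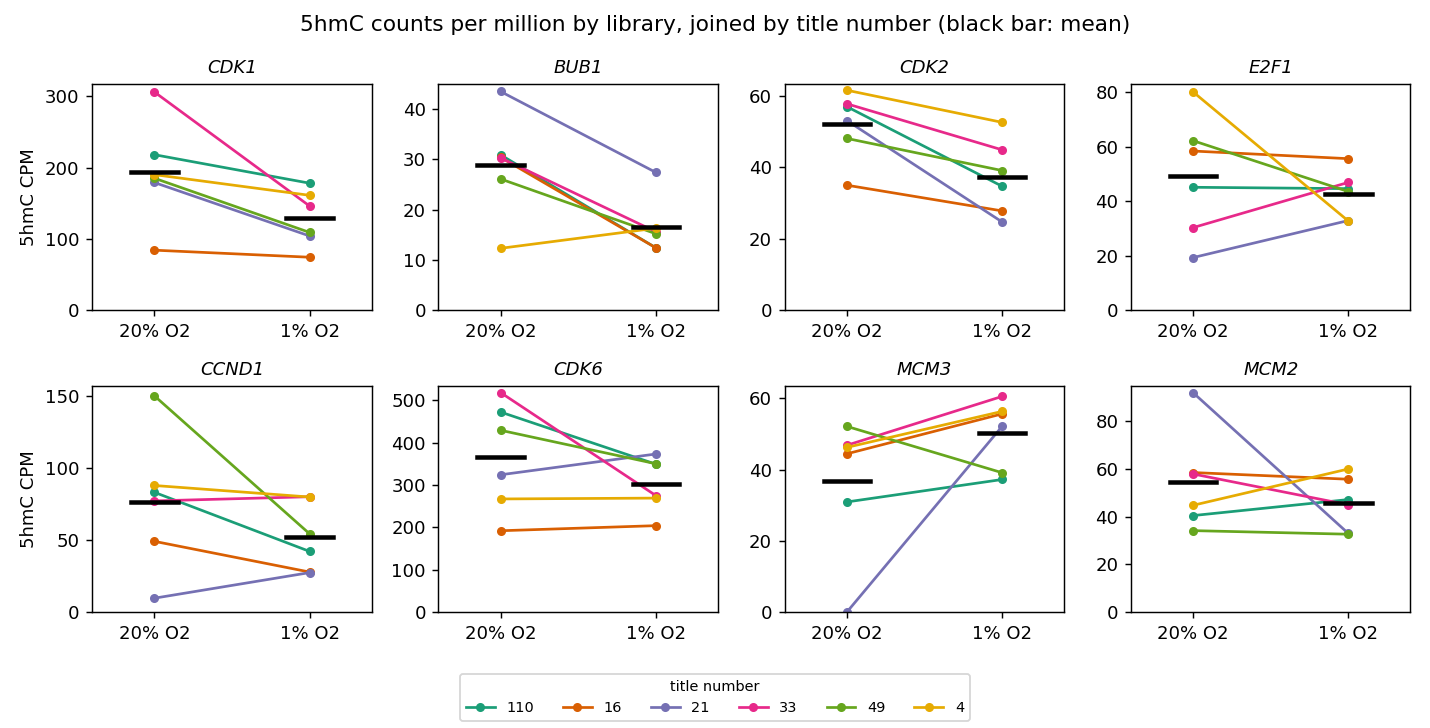
5hmC level in CPM (y axis) at the 2 genes of each role with the smallest p, for normoxia (20% O2) and hypoxia (1% O2, x axis). Each dot is 1 library, lines join the libraries of a title number, and black bars are group means. All 6 lines of CDK1 and of CDK2 slope down towards hypoxia, 5 of 6 do so at BUB1, and the steep line at MCM3 starts from 0 reads in the normoxia library of number 21.

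In the replication role the 3 tested genes pointed both ways. MCM3 and MCM2 encode subunits of the hexameric helicase. MCM3 was at 37.2 to 60.5 CPM (median 53.9) in hypoxia and at 0 to 52.1 CPM (median 45.3) in normoxia. The 0 is the normoxia library of number 21, whose depth allows a level of up to 14.5 CPM. Hypoxia was higher in 5 of 6 numbers, all but 49, and the log2 fold change was 0.37 ± 0.348. Without number 21 it was 0.18. It was 0.65 within lane 7 and 0.01 within lane 8.

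MCM2 had the opposite sign in the full set, and lost it without number 21. It was at 32.6 to 59.9 CPM (median 46) in hypoxia and 34.1 to 91.8 CPM (median 51.2) in normoxia, where the highest value is again number 21. The log2 fold change was -0.2 ± 0.278 and 0.04 without number 21. RRM2 had means of 52.9 ± 15.7 and 58.8 ± 25 CPM (SD, n = 6 each) and a log2 fold change of -0.17 ± 0.302. The other 6 replication genes were not tested. MCM4, MCM6 and MCM7, 3 further helicase subunits, had mean levels of 17.4 to 21.5 CPM in either group, PCNA and CHEK1 had 1 to 12 reads per library, and MCM5 had none.

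CDK1 and BUB1 had the smallest p of the tested G2 and mitosis genes in the fit without the block. CDK1 is the kinase that drives entry into mitosis. Its level was 178 in hypoxia against 218 CPM in normoxia in number 110, 74.2 against 84.1 in 16, 104 against 179 in 21, 146 against 306 in 33, 109 against 185 in 49, and 161 against 190 in 4. The hypoxia library was thus the lower in 6 of 6 numbers. The libraries of number 16 were the lowest of both groups, so the ranges overlap although the pairs all point one way. Only CDK1 and CDK2 of the 19 tested genes had this pattern (10.5%), which 2.59% of all tested genes had.

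The mean level of CDK1 was 129 ± 39.6 CPM in hypoxia and 193 ± 71.4 CPM in normoxia (SD, n = 6 each). The log2 fold change was -0.58 ± 0.271 (adjusted p = 1 by edgeR) without the block and -0.56 with it (adjusted p = 0.511), so CDK1 was not called in either fit. Leaving out single libraries moved the unblocked value between -0.72 and -0.38, and it was smallest without the normoxia library of number 33. Without number 21 it was -0.54 with the tested genes held fixed. It was -0.62 within lane 7 and -0.42 within lane 8. The pair of libraries of number 33 differed most and those of number 16 least.

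BUB1, a kinase of the spindle checkpoint that delays chromosome separation, had the largest fitted difference of the 19 genes on few reads. It was at 12.4 against 30.9 CPM in number 110, 12.4 against 30.4 in 16, 27.4 against 43.5 in 21, 15.6 against 30.3 in 33, 15.2 against 26.1 in 49 and 16.3 against 12.3 in 4, hypoxia first. Hypoxia was lower in 5 of 6 numbers, with number 4 as the exception. Means were 16.6 ± 5.59 and 28.9 ± 10 CPM (SD, n = 6 each) on 4 to 13 reads per library. The log2 fold change was -0.72 ± 0.33 (adjusted p = 1 by edgeR), and -0.74 with the block (adjusted p = 0.675). Without number 21 it was -0.78 with the tested genes held fixed, and within lane 7 it was -0.94, while lane 8 gave no value since BUB1 did not pass the filter there. BUB1 passed the filter through normoxia: 5 normoxia libraries but 1 hypoxia library lay above the level of 21 CPM that 6 libraries had to reach. A gene that passes in this way must differ between the groups, so its size is no support for a difference.

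The remaining mitotic genes showed no common direction. TOP2A, the topoisomerase that untangles sister chromosomes, was at 67.2 ± 15 and 92 ± 34.5 CPM, lower in hypoxia in 5 of 6 numbers, with a log2 fold change of -0.43 ± 0.266. MKI67, which encodes the proliferation marker Ki-67, was at 89.8 ± 17.6 and 73.8 ± 25.5 CPM, higher in hypoxia in 5 of 6 numbers, with a log2 fold change of 0.25 ± 0.256. AURKB, the kinase of the chromosomal passenger complex, was at 102 ± 18.8 and 88.5 ± 15.4 CPM and had a log2 fold change of 0.2 ± 0.222 (SD, n = 6 per group, for these 3 genes). Neither TOP2A, MKI67 nor AURKB was called. Without number 21 the log2 fold changes were -0.35, 0.18 and 0.26.

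CDC20, the activator of the anaphase promoting complex, and BUB1B, a checkpoint protein that restrains it, were nearly level at -0.1 ± 0.306 and 0.02 ± 0.352. PLK1, a kinase that acts from mitotic entry to cell division, had a log2 fold change of -0.29 ± 0.381, although its hypoxia library was lower in only 2 of 6 numbers. CCNB2 (cyclin B2) had -0.2 ± 0.447 and was lower in 3. Without number 21 CCNB2 was at -0.01 and BUB1B at -0.2. CCNA2 (cyclin A2), CCNB1 (cyclin B1), AURKA and CDC25C had too few reads for the test. CCNB1 was at 17.4 ± 3.84 and 26.6 ± 15.1 CPM and CDC25C, the member of this role with the fewest reads, at 7.52 ± 4.54 and 9.64 ± 8.35 CPM (SD, n = 6 each), with overlapping groups at both.

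For the 13 genes that had reads but did not pass the filter, a fit of all genes without the filter gave 7 negative and 6 positive values. Their median was -0.14, and none had an unadjusted p under 0.05 by edgeR (2.74% of all genes in that fit). With these genes included, 22 of 32 values were negative (53.5% of all genes) and the median was -0.169, against -0.0241 over all genes.

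Summed over a role, the level gives each phase 1 value per library and lets well-covered genes weigh most. All 34 genes together were at 1590 ± 180 CPM in hypoxia and 1810 ± 342 CPM in normoxia (SD, n = 6 each). The sum was lower in hypoxia in 6 of 6 numbers, though in number 21 both libraries rounded to 1410 CPM, and the difference was largest in number 33, at 1710 against 2360 CPM. The G2 and mitosis genes summed to 649 ± 89.4 and 753 ± 141 CPM and were lower in 6 of 6 numbers, also with CDK1 left out (521 ± 60.7 and 560 ± 91.7 CPM).

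The other roles were less regular. D cyclins and their kinases summed to 458 ± 55.7 and 543 ± 146 CPM, lower in hypoxia in 4 of 6 numbers. CDK6 alone held 1716 of the 2604 reads of this role, and no sum without it was formed. G1/S genes summed to 263 ± 47.3 and 291 ± 71.1 CPM and replication genes to 221 ± 38.1 and 228 ± 51.4 CPM, each lower in 5 of 6 numbers (SD, n = 6 per group throughout). Some of these differences were within rounding: G1/S genes were at 203 CPM in both libraries of number 21, and replication genes at 221 CPM in both of number 110 and at 263 against 264 CPM in number 4. Without number 21 the means were 452 against 566 CPM for D cyclins and their kinases, 274 against 308 for G1/S, 232 against 245 for replication and 669 against 775 for G2 and mitosis, hypoxia first. In every role the ranges of the groups overlapped and the normoxia libraries spread more widely than the hypoxia libraries. These sums were not tested, and the stromal and smooth muscle marker sums given above had the same direction in the same 6 numbers.

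The numbers differed in how far the 19 tested genes leaned. The median log2 ratio of hypoxia to normoxia was -0.386 in number 33 and -0.213 in number 49, with 14 of 19 genes lower in each. It was -0.0648 in number 16 (12 lower), -0.0147 in number 110 (10 lower) and 0.0103 in number 4 (9 lower). In number 21 it was 0.32, with 8 of 19 lower. Over all tested genes 49.5 to 52.3% were lower in each number, so the cell cycle genes leaned away from all genes most in numbers 33 and 49, and the other way in number 21. Of the 19 genes, CDK1, CDK2, BUB1 and TOP2A were lower in at least 5 numbers (4 genes, or 3 without BUB1, which passed the filter through normoxia, and a pattern of 14.3% of all tested genes). MCM3 and MKI67 were higher in at least 5 (2 genes, a pattern of 11.9% of all tested genes).

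**Figure D4:**
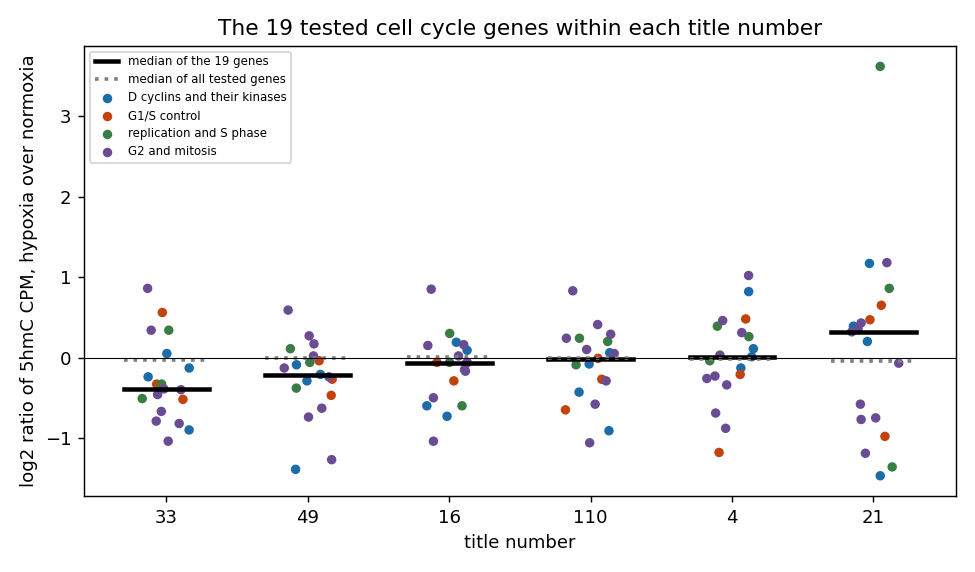
Log2 ratio of 5hmC CPM, hypoxia over normoxia (y axis), at the 19 tested genes within each title number (x axis, ordered by median). Dots are genes coloured by role, black bars their medians and dotted bars the medians of all tested genes. The bar lies lowest in number 33 at -0.386 and highest in number 21 at 0.32, and the topmost dot is MCM3, which had 0 reads in the normoxia library of number 21.

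A wider list of 102 cell cycle genes, none of them among the 34, was read from the same fit. Of these, 101 were listed and 60 were tested, and CDKN2A was not analysed here. None was called by edgeR's test, with 0% called over all genes. Negative values were found at 40 of 60 (56.6% of all tested genes), with a median of -0.139 against -0.0431 over all tested genes. Without number 21 they were found at 38 of 59 (51.6% of all genes), with a median of -0.0766 against -0.0121. At an unadjusted p under 0.05 by edgeR there were 3 of 60 genes (5%), all with lower values in hypoxia. Of all tested genes 2.73% had such a p, and 1.81% had it in the lower direction.

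These 3 were ANLN, RFC1 and NDC80. ANLN encodes anillin, a scaffold of the contractile ring, and was at 76.1 ± 23.6 CPM in hypoxia and 130 ± 63.9 CPM in normoxia (SD, n = 6 each). Its log2 fold change was -0.77 ± 0.31 (adjusted p = 1 by edgeR). RFC1, the large subunit of the clamp loader, had -0.76 ± 0.339, and NDC80, which ties kinetochores to microtubules, -0.96 ± 0.439. Both were lower in 6 of 6 numbers, a pattern of 2.59% of all tested genes. So was ORC4 of the same list, with a smaller log2 fold change of -0.33 ± 0.324. In the other direction the smallest p belonged to FOXM1, a transcription factor of mitotic genes (0.44 ± 0.291). FOXM1 was higher in 6 of 6 numbers. The share of all tested genes with that pattern was not counted, and 11.9% had the less strict one of being higher in at least 5. Next came ESPL1, which encodes separase (0.32 ± 0.329), and POLE, the catalytic subunit of a replicative polymerase (0.24 ± 0.251). Without number 21 the largest move among the 6 genes named for their small p was at ESPL1, to 0.18.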

How the data were processed

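The authors deposited raw read counts per gene symbol for each library. Bowtie2, HTSeq, Picard, MACS2 and edgeR are listed in the submitters' processing notes. Neither build nor counted feature is given in the sources used here. DNA was captured with an anti-5hmC antibody, per the labels' protocols. Groups follow the treatment label. The input sample and the peak lists were not used here.

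Of all reads, 88 to 93% lay outside features and 4.12 to 10.3% had low alignment quality, and these rows were left out. Counts were tested over all genes by the quasi-likelihood test of edgeR 4.0.16 (R 4.3.3), after TMM scaling and filterByExpr (minimum count 10, minimum total 15), with Benjamini-Hochberg adjustment at 0.05. CPM use TMM-scaled library sizes over the tested genes, while the filter uses all gene reads. The SE of an edgeR log2 fold change was derived as its absolute value divided by the square root of the test's F statistic. It is approximate, above all at values near 0. The prior count for log2 ratios within a number was 2. Alternatives were the block, left-out libraries and numbers, single lanes, other scalings, no filter and DESeq2 1.42.0. The fit was tested on simulated data. All pairs of libraries differed by more than sampling noise (lowest chi-square per degree of freedom 1.31 over 66 pairs).

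Title numbers were taken as pairs. After removal of group means, same-numbered libraries had a correlation over genes of 0.369, 0.439, 0.332, 0.417, 0.478 and 0.136 (numbers 110, 16, 21, 33, 49 and 4). All were above the threshold of 0.1. However, 1 pair of libraries with different numbers, 33 and 4, reached 0.504, above the own value of both. Over the 19 tested genes alone, number 4 had 0.0662, under the threshold, and the other numbers had 0.197 to 0.716. The pairing is therefore less sure for numbers 33 and 4. The genes and lists were chosen with earlier results of these data known. Named were the 2 genes of each role with the smallest p, any with an unadjusted p under 0.05 in 3 of the fits (without the block, with it, and without number 21), the genes with most and fewest reads per role, and from the wider list 3 per direction with the smallest p; further genes were named after their values were seen. Symbols were looked up in RefSeq's gene table for Sscrofa11.1, which held all 34.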

Additional observations from a re-analysis of the deposited data

Results flagged for a closer look

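The 19 tested genes and the role sums were screened for a library that stood far from the others of its group, over 48 sets of 6 libraries. The gap to the nearest library, as a share of the group's whole range, had to exceed 0.625, a limit that chance passes in about 1 of 20 groups. It was passed in 2 sets. CCND2, the cyclin D2 gene, was at 100 CPM in the normoxia library of number 16, against 30.3 to 56.2 CPM in the other normoxia libraries (gap 0.628). BUB1 was at 27.4 CPM in the hypoxia library of number 21, against 12.4 to 16.3 CPM in the other hypoxia libraries (gap 0.74), on 10 reads. Without that library the log2 fold change of BUB1 was -0.9, and without the normoxia library of number 16 that of CCND2 was 0.15 in place of -0.17.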

How the results depend on the processing

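No cell cycle gene was called in any setting run. The median log2 fold change of the tested genes stayed below 0 in all, from -0.26 to -0.132 with single libraries left out. Over all genes, 4 were called with the replicate block, 0 to 12 with the block and a number left out, and 12 with the block and without number 21 on the genes of the full set (added after seeing the data). Of the 5 genes with the highest mean CPM, 4 were also among the highest 5 in normoxia alone. With the replicate block BUB1B was at -0.08, and with library sizes unscaled E2F3 was at 0.03. In lane 7 alone CDC20 was at 0.04 and E2F1 at 0.18. In lane 8 alone BUB1B was at -0.28, CCNB2 0.23, CCND3 0.37, E2F3 0.31, ESPL1 -0.34, MCM2 0.28 and RRM2 0.07. With libraries or numbers left out, values crossed 0 at BUB1B (-0.31 to 0.18), CCNB2 (-0.61 to 0.27), CCND2 (-0.27 to 0.15), CCND3 (-0.3 to 0.17), CDC20 (-0.28 to 0.14), E2F1 (-0.42 to 0.05), E2F3 (-0.18 to 0.21), MCM2 (-0.35 to 0.05) and PLK1 (-0.44 to 0.04), and the cause was not tested. Some others kept their sign but moved by over 1.5 times: without the normoxia library of number 33 CDK6 was at -0.13, TOP2A at -0.21 and RRM2 at -0.04, and without that of number 21 MKI67 was at 0.12, of number 110 AURKB at 0.12. Apart from BUB1B, the block turned no sign among the named genes and changed no call among them. Levels per kilobase and promoter matches were not run, since neither counted lengths nor sequences were at hand. With 9.17 to 143 reads per library on average at the tested genes, differences of the sizes seen here can be missed.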
